A study of Homo sapiens with 12 samples.

Results

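A line of Caco-2 cells carrying TLR4-D299G was compared with a line carrying TLR4-T399I, with no other treatment between them. Caco-2 is a human colon carcinoma line used as a model of intestinal epithelium. The 6 arrays labelled with these mutants, 3 for each, were taken from the 12 arrays of the study, and all 33297 probe sets entered the comparison. The other arrays were 3 of a line carrying wild-type TLR4 (TLR4-WT) and 3 of untransfected Caco-2 without exogenous DNA; they give reference levels below. Each of the 3 TLR4 lines was made from an HA-tagged plasmid put in at 1 µg per well by lipofection, and stable clones were kept in blasticidin at 1 µg/ml. The mutations were made in the wild-type construct and checked by sequencing. No line with an empty plasmid is among the groups, so blasticidin selection and growth as a clone are shared by the TLR4 lines and not by the untransfected cells. The labels speak of clones without saying how many stand behind a line. The receptor sequence, the clone and the site of plasmid insertion cannot be told apart between the D299G and T399I lines. All cells were cultured for 8 days before RNA was taken. The labels also do not say whether the 3 RNA samples of a line came from separate cultures, so the p-values below rest on differences among these samples alone, which could be technical in origin.

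TLR4 is the receptor for bacterial lipopolysaccharide. It works with the co-receptors LY96 (MD-2) and CD14, and signals through the adaptors MYD88 and TICAM1 to NF-kB, MAP kinases and interferon regulatory factors. D299G puts glycine in place of an aspartate and T399I isoleucine in place of a threonine; both are common human variants in the extracellular part of the receptor. Confluent Caco-2 cells take on features of absorptive enterocytes, with brush border enzymes and apical transporters, and they also express many genes of fetal liver and intestine.

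Values are deposited log2 expression levels (RMA), 1 array per RNA sample, and the number of arrays limits the precision. Array medians ran from 6.88 to 6.97 and lower quartiles from 5.2 to 5.29 over the 12 arrays. Pearson correlations over all probe sets were 0.9951 to 0.9959 among the D299G arrays, 0.9918 to 0.9942 among the T399I arrays and 0.9878 to 0.9903 between the lines. A difference is the D299G mean minus the T399I mean on the log2 scale, with the standard error (SE) of a limma fit. A probe set or gene was called at a Benjamini-Hochberg adjusted p under 0.05 over all 33297 probe sets. Where a group mean lies below the lower quartile of the arrays, the fold is written as "at least".

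The plasmid gene was measured first. TLR4 read 8.81, 8.89 and 8.73 on the D299G arrays and 8.29, 8.39 and 8.34 on the T399I arrays. The TLR4-WT line averaged 8.61 and untransfected Caco-2 averaged 4.83, which is under every array's lower quartile. All 3 lines thus held more TLR4 transcript than untransfected cells. Levels in the D299G and T399I arrays did not overlap, as was the case for 29.9% of all probe sets. The difference was 0.47 (SE 0.12; limma adjusted p = 0.0214), a 1.39-fold higher level in D299G. The exact two-sided permutation test over the 6 arrays gave p = 0.1, the smallest that 3 against 3 allows. In limma the call was lost when D299G replicate 1 or 2, or T399I replicate 1 or 3, was left out, with adjusted p from 0.0581 to 0.0833. The array cannot read the mutated bases, so it checks the amount of TLR4 transcript and not which receptor form was present.

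Between the lines 4476 of 33297 probe sets were called, or 13.4%. Of these, 1933 (5.81%) were higher in D299G and 2543 (7.64%) were lower. A difference of at least 2-fold was found for 203 called probe sets that were higher (0.61%) and 121 that were lower (0.363%). With 1 probe set per gene, 18417 genes were measured. Called genes numbered 3515 (19.1%), with 1553 higher (8.43%) and 1962 lower (10.7%), and the 3 and 3 arrays did not overlap in 6794 genes (36.9%). At an unadjusted p under 0.05 the fit held 8256 probe sets. The shares called are the background against which each gene list below is to be read. They were larger among well-expressed probe sets: of the 16650 brightest, tested alone, 2059 were called higher and 3036 lower. For lists of well-expressed genes the background given below is therefore too low. The median difference over all genes was 0.02.

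**Figure D1:**
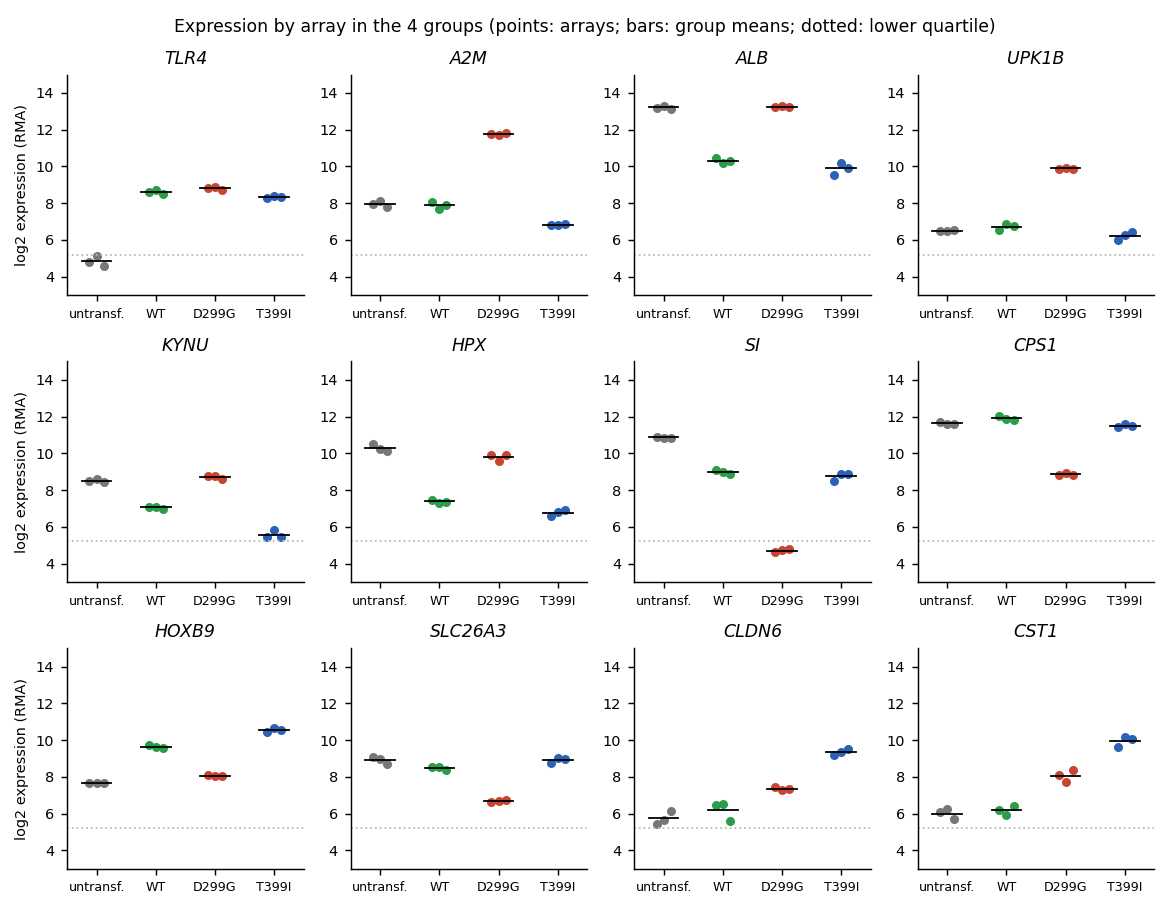
Log2 expression (RMA) of 12 genes on each of the 12 arrays, by group; points are arrays, black bars are means of 3 arrays and the dotted line is the lowest of the arrays' lower quartiles. TLR4 is close to that line in untransfected cells alone, A2M and UPK1B stand highest in D299G, SI and CPS1 stand lowest in D299G, and CLDN6 and CST1 stand highest in T399I.

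**Figure D2:**
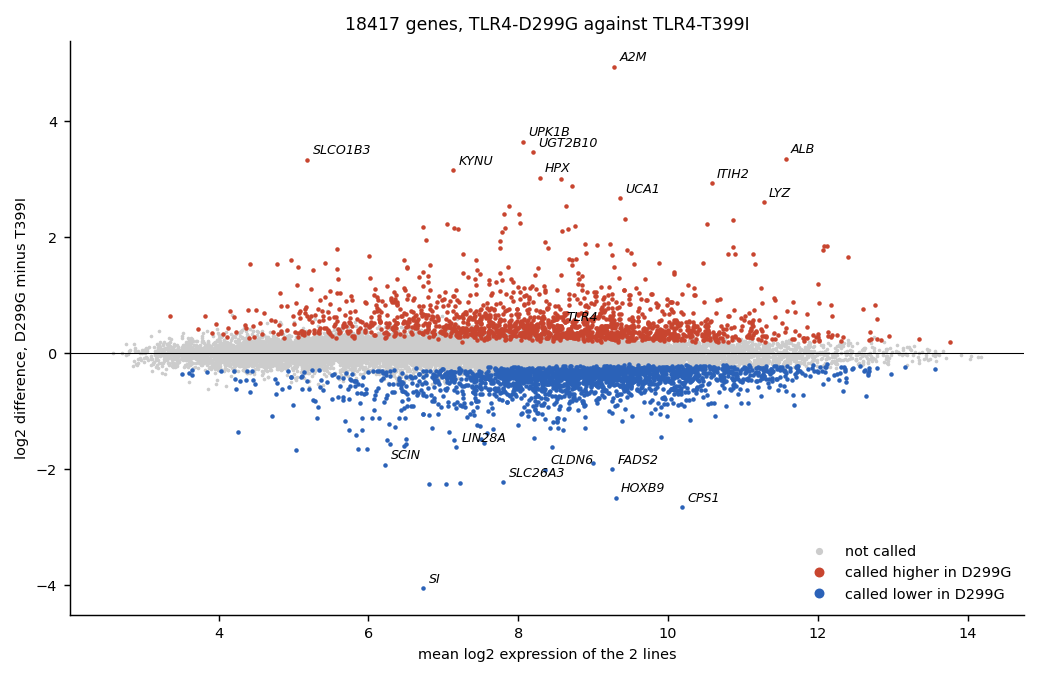
Log2 difference (D299G minus T399I) of 18417 genes against their mean log2 expression in the 2 lines, with called genes in colour. A2M at 4.94 is the highest point and SI at -4.06 the lowest, and TLR4 at 0.47 lies among genes of small difference.

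Genes of plasma proteins, made in adults mainly by the liver, were higher in D299G. They account for 10 of the 20 named genes with the largest positive differences and 0 of the 20 with the largest negative ones. Over 5 lists of carriers and acute-phase proteins, protease inhibitors, coagulation factors, complement and apolipoproteins, 101 genes were measured. Of these 71 were higher in D299G, 3 were lower, and the median difference was 0.70. Over all genes 8.43% were higher and 10.7% lower. The lists were chosen with earlier results of these data known, so their counts describe the genes and are not a test. SPINT1, MTTP and NPC1L1 are the 3 that were lower; they were named after their values were seen.

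Alpha-2-macroglobulin (A2M), a broad protease trap of plasma, showed the widest gap. It read 11.75, 11.69 and 11.83 in D299G and 6.79, 6.81 and 6.84 in T399I. The TLR4-WT and untransfected means were 7.89 and 7.97, so D299G stood above and T399I below both. The difference was 4.94 (SE 0.10; limma adjusted p = 1.79e-09), or 30.8-fold. Of the 16 measured protease inhibitors, A2M among them, 10 were higher and 1 was lower, with a median of 0.60. Heparin cofactor SERPIND1, which blocks thrombin, read 10.18, 10 and 10.05 against 6.86, 7.32 and 7.03 (3.01, SE 0.12; limma adjusted p = 8.6e-08). ITIH2, a heavy chain that stabilises hyaluronan, read 12.07, 12.03 and 12.05 against 8.91, 9.31 and 9.13 (2.93). Antithrombin (SERPINC1) differed by 2.26. In each of these inhibitors all D299G arrays lay above all T399I arrays.

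Carriers and acute-phase proteins were higher in 19 of 23 measured genes and lower in 0, with a median of 1.08. Albumin (ALB), the main carrier of plasma, read 13.22, 13.29 and 13.24 in D299G and 9.55, 10.20 and 9.92 in T399I. That is a difference of 3.36 (SE 0.14; limma adjusted p = 1.13e-07), or 10.3-fold. Untransfected cells, at 13.21, were near the D299G mean of 13.25, and TLR4-WT cells, at 10.31, were near T399I. Hemopexin (HPX), which binds free heme, read 9.90, 9.60 and 9.91 in D299G and 6.60, 6.79 and 6.92 in T399I, with a mean of 7.38 in TLR4-WT and of 10.28, the highest of the 4 groups, in untransfected cells. The corticosteroid carrier SERPINA6 (2.88), ORM1 (2.40), the protease inhibitor SERPINA3 (2.14) and the fetal albumin relative AFP (1.84) were also higher in D299G. ORM1 and ORM2 are near-identical genes, and the probe sets may not tell them apart. SAA1 and CRP, acute-phase proteins driven by cytokines, differed by 0.01 and 0.12 and were not called.

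Coagulation genes were higher in 15 of 20 and lower in 0, with a median of 0.83. Fibrinogen alpha (FGA) read 12.00, 11.99 and 12.08 in D299G and 9.52, 9.85 and 9.80 in T399I (2.30, SE 0.09; limma adjusted p = 7.06e-08). Its partner chain FGB differed by 1.83, the related FGL1 by 1.91 and factor F5 by 1.63. For FGA the TLR4-WT and untransfected means, 9.74 and 10.05, were close to T399I, and for FGL1 the TLR4-WT mean was 9.33, beside 9.32 in D299G. Complement genes were higher in 16 of 23 and lower in 0 (median 0.51). C5, the source of the C5a peptide, read 8.86, 8.92 and 8.95 against 6.41, 7.06 and 6.75 (2.17). The protease CFI (1.39), the regulator C4BPA (1.30) and C3 (1.02) followed. In limma's fit 0 carrier, coagulation or complement genes were lower at an unadjusted p under 0.05 either.

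Apolipoprotein and lipoprotein assembly genes were higher in 11 of 19 and lower in 2, or 1 without D299G replicate 2 or 3 or T399I replicate 2. Their median was 0.44. APOC3, an inhibitor of lipoprotein lipase, read 11.73, 11.52 and 11.67 in D299G and 9.42, 9.30 and 9.49 in T399I (2.24, SE 0.08; limma adjusted p = 7.78e-08). A further probe set for APOC3 gave 2.22. APOH (1.71), APOA2 (1.67) and the cholesterol exporter ABCA1 (1.47) were higher as well. APOH was higher still in untransfected cells, at a mean of 12.55 against 11.66 in D299G and 9.94 in T399I.

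**Figure D3:**
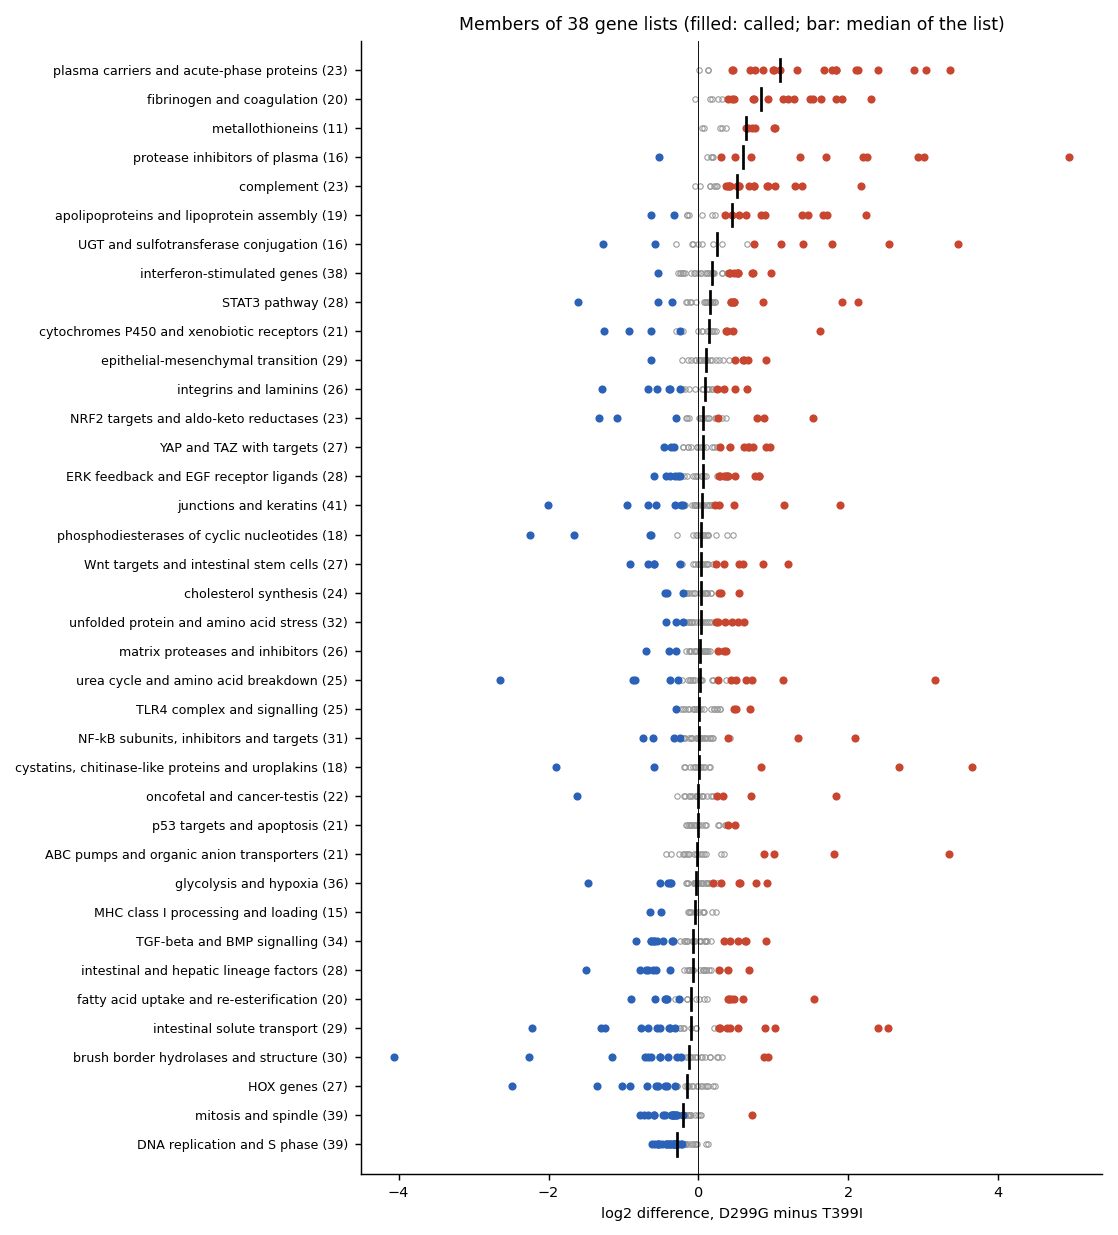
Log2 difference (D299G minus T399I) of each measured member of 38 gene lists; filled points were called (red higher, blue lower in D299G), open points were not, and the black bar is the median of the list. The 5 lists with plasma proteins and the metallothioneins have medians of 0.44 to 1.08, and the DNA replication list has the lowest median at -0.28.

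Markers of hepatocytes were higher along with the plasma proteins, and several of them are plasma protein genes themselves. Of 11 measured, 7 were higher in D299G and 1 was lower (CPS1). Their summed level, on the log2 scale, was 14.97 to 15.02 in D299G, 13.41 to 13.62 in T399I, 14.10 to 14.15 in TLR4-WT and 14.70 to 14.76 in untransfected cells. The part that such a program has in the plasma protein differences was not tested.

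Promoters were searched for GTTAATNAT, part of the HNF1 binding motif, on both strands from 250 bases before to 50 after each RefSeq start. HNF1 factors drive many genes of liver and gut. The letters were found in 0.751% of 27305 promoters, in 1.63% of 1289 promoters of genes called higher in D299G and in 0.766% of 1567 of genes called lower. Among the 5 plasma lists 9 of 84 matched promoters held them (10.7%). To show where they stand, the 100 bases before the start are printed for 4 of the 9 genes, all higher in D299G, from RefSeq on GRCh38.p14; capitals mark the match. ALB lies at chr4:73404187-73404286 on the plus strand, FGA at chr4:154590743-154590842 on the minus strand, SERPINA4 at chr14:94561342-94561441 on the plus strand and C4BPA at chr1:207104133-207104232 on the plus strand. SERPINA4, the kallikrein inhibitor kallistatin, differed by 2.20.
ALB: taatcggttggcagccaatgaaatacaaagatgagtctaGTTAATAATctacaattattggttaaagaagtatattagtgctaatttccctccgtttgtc
FGA: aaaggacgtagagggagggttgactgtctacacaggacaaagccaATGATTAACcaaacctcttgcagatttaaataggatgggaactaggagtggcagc
SERPINA4: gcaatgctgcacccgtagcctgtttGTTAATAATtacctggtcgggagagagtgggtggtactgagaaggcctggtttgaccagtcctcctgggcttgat
C4BPA: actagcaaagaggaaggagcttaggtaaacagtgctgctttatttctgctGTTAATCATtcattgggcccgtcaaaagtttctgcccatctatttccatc
In FGA the match runs on the opposite strand, so it is read as the reverse complement. A match describes the letters in this window and does not show that a factor was bound. The motif was chosen as one of plasma protein genes, so its share in the plasma lists is no result about the lines. ALB, FGA, SERPINA4 and C4BPA are themselves among the genes called higher, so the 1.63% is not separate from the plasma lists. NPC1L1, which was lower in D299G by 0.32, holds the motif too.

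Among brush border genes, more were lower in D299G than higher. Of 30 measured, 11 were lower in D299G, 2 were higher and 17 were not called, with a median of -0.13 (background 10.7% lower). Sucrase-isomaltase (SI), which splits sucrose and starch fragments at the apical surface, read 4.60, 4.72 and 4.79 in D299G and 8.51, 8.88 and 8.89 in T399I. The difference was -4.06 (SE 0.10; limma adjusted p = 7.32e-09), at least 16.6-fold, with the D299G mean below the lower quartile of every array. TLR4-WT cells averaged 8.97 and untransfected cells 10.86, so D299G stood apart from the other 3 groups. The glucosidase relative MGAM2 read 6.10, 5.76 and 5.85 against 8.01, 8.44 and 8.04 (-2.26). The membrane mucin MUC13 was lower by 1.16 and was highest in T399I among the 4 groups. TM4SF4, a tetraspanin-like membrane protein, was higher by 0.93. ANPEP and ALPI, other apical enzymes, differed by 0.16 and 0.09 and were not called.

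Intestinal transporters split, with 9 of 29 higher and 10 lower in D299G. SLC26A3, the chloride-bicarbonate exchanger of the colon, read 6.65, 6.69 and 6.74 in D299G and 8.77, 9.01 and 8.96 in T399I (-2.22, SE 0.10; limma adjusted p = 3.27e-07). TLR4-WT and untransfected cells, at 8.49 and 8.92, were near the T399I mean. The chloride channel CFTR, its apical partner, read 8.23, 8.26 and 8.24 against 9.49, 9.64 and 9.49 (-1.30). Both genes lie in a stretch of chromosome 7 described below. In the other direction, the facilitative glucose transporter SLC2A2 (GLUT2) read 9.81, 10.09 and 9.84 against 7.11, 7.62 and 7.40 (2.54, SE 0.14). CLTRN, the collectrin that traffics amino acid transporters, read 8.96, 9.05 and 9.04 against 6.27, 6.87 and 6.71 (2.40), and both SLC2A2 and CLTRN were higher in D299G than the means of the other 3 groups.

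Among 28 lineage transcription factors, 7 were lower and 3 higher. HNF4G, a nuclear receptor of the enterocyte, was at 6.35, 6.47 and 6.39 in D299G and 7.71, 7.97 and 8.01 in T399I (-1.49, SE 0.09; limma adjusted p = 1.68e-06). ATOH1 of secretory cells (-0.77) and KLF4 (-0.69) were lower, and PROX1, a hepatoblast and endocrine factor, was higher (0.67). Of the enterocyte and colon markers used to check the cell type, 11 were measured, and for 0 of them both line means lay under the lower quartile; SI was below it in D299G. Of these markers 1 was higher (KRT19, 0.23). The 5 lower were SI, KRT20 (-0.95), CDH17 (-0.71), CDX2 (-0.67) and VIL1 (-0.28). KRT19, CDH17, CDX2 and VIL1 were named after their values were seen. CDX2 is also 1 of the 7 lower lineage factors. The summed log2 level of the 11 markers was 15.47 to 15.51 in D299G and 15.51 to 15.54 in T399I.

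The HOXB cluster, genes that give cells their position along the body axis, was lower in D299G. Of 27 measured HOX genes 10 were lower and 0 higher, with a median of -0.16; 6 of the 10 lie in HOXB. At an unadjusted p under 0.05, limma gave 12 lower and 1 higher. HOXB9 read 8.09, 8.04 and 8.03 in D299G and 10.44, 10.67 and 10.53 in T399I (-2.49, SE 0.07; limma adjusted p = 1.02e-08). T399I was the highest of the 4 groups, with TLR4-WT at 9.64 and untransfected cells at 7.68, below D299G. HOXB6 (-1.36), HOXB7 (-1.02) and HOXB3 (-0.91) were lower, with the same order of group means. HOXB5 (-0.68) and HOXB8 (-0.45) were called, while HOXB1, HOXB2, HOXB4 and HOXB13 were not, at 0.22, -0.16, -0.29 and -0.12.

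Both microRNA genes measured in the cluster were lower in D299G. MIR196A1, next to HOXB9, read 6.73, 6.97 and 6.59 in D299G and 8.17, 8.24 and 8.32 in T399I (-1.48, SE 0.10; limma adjusted p = 4.33e-06). MIR10A, next to HOXB4, read 3.72, 3.43 and 3.59 against 4.68, 5.19 and 4.96 (-1.36), with all 4 group means below the lower quartile; the genes on either side of it, HOXB4 and HOXB-AS3, were not called. These probe sets measure RNA from the hairpin's locus and not the mature microRNA. Of 173 microRNA genes measured, 8 were called, a share of 4.62% that is below the 19.1% over all genes. The 8 are MIR196A1, MIR10A, MIR194-1 (-0.89), MIR15A (-0.66), MIRLET7F1 (-0.52), MIR200C (-0.51), MIR455 (0.34) and MIR122 (1.54). All 8 were named after their values were seen. MIR122, known for its abundance in hepatocytes, read 5.40, 5.22 and 4.94 in D299G and 3.45, 3.82 and 3.67 in T399I, both dim. The mature strands of 4 loci, from RefSeq, are shown because they have different seeds (bases 2 to 8, in capitals), so they would pair with different targets.
hsa-miR-196a-5p: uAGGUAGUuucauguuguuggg
hsa-miR-10a-5p: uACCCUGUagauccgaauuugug
hsa-miR-194-5p: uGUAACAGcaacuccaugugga
hsa-miR-122-5p: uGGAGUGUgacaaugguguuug
On GRCh38.p14, hsa-miR-196a-5p lies at chr17:48632532-48632553 and hsa-miR-10a-5p at chr17:48579904-48579926, both on the minus strand. MIR194-1, a locus of intestinal epithelium, read 4.42, 4.52 and 4.71 in D299G and 5.38, 5.25 and 5.68 in T399I.

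**Figure D4:**
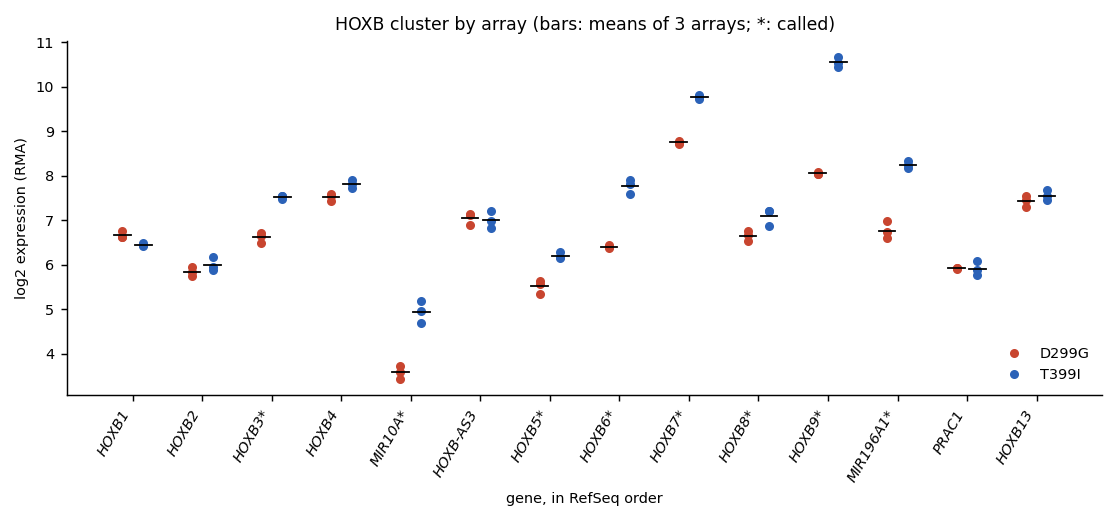
Log2 expression (RMA) of 14 genes of the HOXB region in RefSeq order, with red points for the 3 D299G arrays, blue points for the 3 T399I arrays and black bars for means; an asterisk marks a called gene. HOXB9 and MIR196A1 show the widest gaps (-2.49 and -1.48), while PRAC1 (0.01) and HOXB-AS3 (0.04) overlap.

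Metallothioneins, small proteins that bind zinc and copper, were higher in D299G. Of 11 measured, 6 were higher, 0 lower and all 11 differences were above 0, with a median of 0.64 (background 8.43% higher). MT1F read 10.66, 10.71 and 10.74 in D299G and 9.67, 9.58 and 9.80 in T399I (1.02, SE 0.09; limma adjusted p = 2.63e-05). MT1H (1.01), MT1X (0.75) and MT1E (0.72) were also higher. In MT1F, MT1H, MT1X and MT1E the D299G arrays lay above the T399I arrays, and both lines averaged above TLR4-WT and untransfected cells. The family is near-identical and shares 1 locus on chromosome 16, so its members may share signal and do not count as independent genes.

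Metallothionein promoters carry repeats of the metal response element, the site of the zinc sensor MTF1. Its core TGCNCNC, on both strands, was found in 55.2% of the 27305 promoters, and 4 or more matches stood in 2.78%. Of promoters of genes called higher and lower in D299G, 2.64% and 3.32% held 4 or more. All 5 metallothionein promoters that RefSeq matched held 4 or more, and they include MT1B (0.36) and MT4 (0.04), which were not called. The 180 bases before the start are printed for 3 genes that were higher in D299G, on the plus strand of GRCh38.p14, with matches in capitals. They are MT2A (higher by 0.64) at chr16:56608404-56608583, MT1X at chr16:56682290-56682469 and MT1H at chr16:56669634-56669813.
MT2A: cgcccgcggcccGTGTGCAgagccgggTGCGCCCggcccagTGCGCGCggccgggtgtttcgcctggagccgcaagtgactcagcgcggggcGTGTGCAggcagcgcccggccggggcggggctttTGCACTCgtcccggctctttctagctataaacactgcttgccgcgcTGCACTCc
MT1X: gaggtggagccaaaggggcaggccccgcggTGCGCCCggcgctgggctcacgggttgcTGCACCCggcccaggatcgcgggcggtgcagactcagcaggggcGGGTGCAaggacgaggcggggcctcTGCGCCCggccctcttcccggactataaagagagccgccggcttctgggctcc
MT1H: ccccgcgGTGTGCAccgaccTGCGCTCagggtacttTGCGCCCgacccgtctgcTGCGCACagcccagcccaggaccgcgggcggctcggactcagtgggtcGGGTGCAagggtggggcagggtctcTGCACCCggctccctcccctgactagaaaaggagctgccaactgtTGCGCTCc
These stretches hold 6, 4 and 7 matches in turn.

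Genes that conjugate drugs and steroids and transporters of organic anions were among the larger differences. Of 16 UGT and sulfotransferase genes 6 were higher in D299G and 2 lower, with a median of 0.25. UGT2B10, which adds glucuronic acid to amines, read 9.75, 10.29 and 9.75 in D299G and 6.06, 6.82 and 6.51 in T399I (3.47, SE 0.28; limma adjusted p = 1.34e-05), or 11.1-fold. UGT2B4 (2.55), UGT2A3 (1.78) and UGT2B7 (1.40) were higher too, but UGT2B genes are near-identical and the probe sets may share signal. The hepatic uptake transporter SLCO1B3 read 6.87, 7.25 and 6.45 against 3.18, 4.09 and 3.28. Its T399I mean lies under the lower quartile, so the difference of 3.34 (SE 0.31) is at least 10.1-fold. Organic anion transporters SLC22A9 (1.81), SLC22A7 (1.01) and SLCO2B1 (0.87) completed the 4 of 21 pumps and transporters that were higher. The list had 0 lower in limma's fit (5 at an unadjusted p under 0.05), but 2 higher and 3 lower when the 16650 brightest probe sets were tested, and 2 lower among probe sets above the lower quartile. No ABC pump was among the 4.

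Cytochromes P450 and their receptors split, 4 of 21 higher (2 without D299G replicate 1 or 3) and 4 lower. CYP3A5, a steroid and drug oxidase of gut and liver, read 9.59, 9.57 and 9.60 against 7.78, 8.00 and 8.11 (1.62), while the arachidonate epoxygenase CYP2J2 was lower by 1.25. Among 23 NRF2 targets and aldo-keto reductases 4 were higher and 3 lower. AKR1C3, which reduces steroids and prostaglandins, was higher by 1.54, and its near-identical neighbour AKR1C2 was lower by 1.33. The glutathione peroxidase GPX2 of intestinal epithelium was lower by 1.08; both lines, at 10.08 and 11.16, averaged above untransfected cells at 7.76.

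Amino acid enzymes also held wide gaps in both directions. CPS1, the first enzyme of the urea cycle in liver and small intestine, read 8.83, 8.92 and 8.82 in D299G and 11.43, 11.61 and 11.49 in T399I (-2.65, SE 0.08; limma adjusted p = 1.44e-08). TLR4-WT and untransfected cells, at 11.90 and 11.63, were near the T399I mean. Kynureninase (KYNU), which breaks down kynurenine from tryptophan, read 8.76, 8.76 and 8.61 in D299G and 5.42, 5.80 and 5.44 in T399I (3.16, SE 0.10), with untransfected cells at 8.50. TDO2, the first step of that route, was higher by 1.12. Of 25 genes in this list 7 were higher and 5 lower.

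DNA replication genes were lower in D299G, by small amounts. Of 39 measured, 23 were lower and 0 higher, with a median of -0.28; at an unadjusted p under 0.05, limma gave 29 lower and 0 higher. POLE2, a subunit of DNA polymerase epsilon, read 8.53, 8.43 and 8.55 against 8.90, 9.32 and 9.16 (-0.62, SE 0.10; limma adjusted p = 0.00139). The initiation factors MCM10 and ORC1 were lower by 0.53 each, and cyclin CCNE2 by 0.57. Leaving out T399I replicate 3 cut the count of lower genes to 15, and CCNE2 was then not called (adjusted p = 0.0516).

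Mitosis and spindle genes showed 16 of 39 lower and 1 higher, with a median of -0.21. The proliferation marker MKI67 read 9.62, 9.64 and 9.71 in D299G and 10.44, 10.48 and 10.39 in T399I (-0.78, SE 0.07; limma adjusted p = 3.25e-05). The spindle proteins PRC1 (-0.72) and KIF23 (-0.68) lie on chromosome 15, and the kinesin KIF4A (0.72), the 1 gene that was higher, lies on X. Without the genes of chromosomes 13, 15 and X, where many neighbours differ one way, 12 of 34 were lower and 0 higher. For replication 22 of 37 were then lower. Over all genes outside these chromosomes 9.44% were lower and 8.03% higher. Other chromosomes that leaned lower were kept, among them 10 (19% lower), 8 (16.3%) and 14 (14.7%). MKI67 and MCM10 lie on chromosome 10, POLE2 on 14 and CCNE2 on 8. These counts therefore do not set the lists apart from differences along chromosomes. The count of lower mitosis genes was 9 without D299G replicate 1, without T399I replicate 2 or without T399I replicate 3.

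In the TLR4 pathway itself, 3 of 25 measured genes were higher (12%, against 8.43% over all genes) and 1 was lower (4%, against 10.7%), with a median of 0.01. TLR4, carried by the plasmid, is 1 of the 3; 5 were higher after quantile normalisation or with a trend and robust prior, and 6 when the 16650 brightest probe sets were tested. The inhibitor TOLLIP read 9.23, 9.09 and 9.07 in D299G and 8.62, 8.66 and 8.61 in T399I (0.50), and TAB3, a partner of the kinase TAK1, was higher by 0.69 and lies on X. The brake SARM1 was lower by 0.30 (limma adjusted p = 0.0238), a call that was lost on leaving out any of D299G replicates 2 and 3 and T399I replicates 1 and 3. The co-receptors LY96 and CD14 and the adaptors MYD88 and TICAM1 were not called, at -0.06, 0.01, -0.01 and 0.28.

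NF-kB subunits, inhibitors and targets gave 3 of 31 higher and 4 lower, against a background of 8.43% and 10.7%. CCL20, a chemokine for dendritic cells and lymphocytes, read 8.69, 8.88 and 8.93 in D299G and 6.58, 6.66 and 6.97 in T399I (2.10, SE 0.12; limma adjusted p = 1.07e-06). PTGS2 (COX-2), which makes prostaglandins, read 7.35, 7.61 and 7.42 against 6.17, 6.02 and 6.21 (1.33). Both were higher in D299G than in the means of the other groups. The neutrophil chemokines CXCL1 (-0.61) and CXCL2 (-0.74) were lower, and CXCL8 and TNF were not called, at 0.02 and 0.18. For CXCL2 the call was lost without D299G replicate 2 or 3 or T399I replicate 2, and in the 6 arrays compared alone. The count of lower members was 2 without D299G replicate 2 or 3, and 1 in the 6 arrays compared alone.

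Interferon-stimulated genes were higher in 9 of 38 and lower in 1, with a median of 0.18. UBE2L6, the enzyme that conjugates ISG15, was higher by 0.97, IFIT5 by 0.73 and IFI6 by 0.71, while IFITM1 was lower by 0.54. In the STAT3 list 8 of 28 were higher and 3 lower; SERPINA3 and FGL1 belong to the plasma protein lists as well. The receptor LIFR was higher by 0.86 and the pancreatic stone protein REG1A, at 5.77, 5.50 and 5.76 against 7.02, 7.49 and 7.34, was lower by 1.61. ERK feedback genes and EGF receptor ligands gave 10 of 28 higher and 6 lower. ETV5 and IER3 were higher by 0.81 each and PHLDA1 by 0.76, and ETV4 was lower by 0.60. Without D299G replicate 2 these counts were 5 and 3, without D299G replicate 1 the higher count was 6, and without D299G replicate 3 or T399I replicate 2, and in the 6 arrays compared alone, the lower count was 3.

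Several of the widest gaps belonged to no large group. UPK1B, a tetraspanin of urothelium, read 9.85, 9.93 and 9.88 in D299G and 6.02, 6.27 and 6.41 in T399I (3.65, SE 0.10; limma adjusted p = 9.59e-09), 12.6-fold, with the other groups at 6.71 and 6.51. The long non-coding RNA UCA1, found in bladder cancer, read 10.61, 10.85 and 10.63 against 8.03, 8.06 and 7.96 (2.68). Lysozyme (LYZ), which cleaves bacterial cell walls, read 12.55, 12.60 and 12.59 against 9.88, 10.02 and 10.02 (2.61), with TLR4-WT at 11.86 and untransfected cells at 9.14. ERP27, a chaperone-like protein of the endoplasmic reticulum, was higher by 2.31. The gap junction proteins GJA1 (connexin 43; 1.89) and GJB1 (connexin 32; 1.14) were higher.

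On the other side stood genes that were high in T399I. The embryonic claudin CLDN6 read 7.45, 7.28 and 7.33 in D299G and 9.18, 9.36 and 9.54 in T399I (-2.01, SE 0.23; limma adjusted p = 0.000185), against 6.19 in TLR4-WT and 5.74 in untransfected cells. Cystatin CST1, a protease inhibitor with near-identical relatives, read 8.10, 7.71 and 8.36 against 9.65, 10.15 and 10.06 (-1.90). FADS2, the first desaturase of polyunsaturated fatty acid synthesis, read 8.27, 8.23 and 8.26 against 10.30, 10.23 and 10.23 (-2, SE 0.05), with TLR4-WT and untransfected cells at 8.18 and 8.54, near the D299G mean. The actin-severing SCIN (-1.92), the RNA-binding LIN28A of embryonic cells (-1.62) and the GABA receptor subunit GABRA3 (-1.56) were also highest in T399I among the 4 groups.

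A further set had a lower mean in D299G than in TLR4-WT as well as T399I, and no calls against TLR4-WT are given here. Untransfected cells were low too for some of these genes. The phosphodiesterase PDE3A, which breaks down cyclic AMP, read 6.50, 6.05 and 5.76 in D299G and 8.20, 8.41 and 8.43 in T399I (-2.24, SE 0.18; limma adjusted p = 1.68e-05), with TLR4-WT at 8.61 and untransfected cells at 6.63. PDE10A (-1.66), PDE3B (-0.64) and PDE8A (-0.63) were the other 3 of 18 phosphodiesterases that were lower, with 0 higher. For PDE10A the D299G mean of 5.03 lies under the lower quartile, which makes the fold at least 3.15, and untransfected cells averaged 4.87. The membrane protein PLXDC2 read 5.71, 5.65 and 5.68 against 7.73, 8.08 and 8.00 (-2.26). The kinase PRKD1 (-1.67, D299G mean 4.20) and CCSER1 (-1.65, D299G mean 5.16) were dim in D299G. They were dim in untransfected cells as well, at 4.36 and 4.32. TSPAN12 (-1.61), the scavenger receptor MSR1 (-1.56) and the secreted factor NDNF (-1.54) were lower by similar amounts. For these the untransfected means, 9.10, 6.90 and 9.34, lay above D299G.

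Fatty acid genes split, 6 of 20 higher and 6 lower. The scavenger receptor CD36 was higher by 1.55 from a T399I mean of 4, under the lower quartile, and the acyl-CoA synthetase SLC27A2 was lower by 0.90 and lies on chromosome 15. In the growth factor and matrix lists the calls also ran both ways. TGF-beta and BMP signalling gave 6 of 34 higher and 9 lower, with TGFB2 up by 0.90, BMP4 by 0.63, BMP7 down by 0.83 and TGFB1 by 0.63. YAP and TAZ with their targets gave 8 of 27 higher and 3 lower, led by WWTR1 (TAZ; 0.95) and its target ANKRD1 (0.72), and the epithelial-mesenchymal list gave 5 of 29 higher and 1 lower. Among integrins and laminins 4 of 26 were higher (2 without D299G replicate 1) and 6 lower, with ITGB8 at -1.28, ITGB6 at -0.68 and ITGA2 at 0.65. Wnt targets and stem cell genes gave 6 of 27 higher and 5 lower, with the Wnt inhibitor DKK1 at 1.20 and the stem cell marker PROM1 at 0.86.

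Most stress and metabolic lists held calls in both directions, several near the shares over all genes (8.43% higher and 10.7% lower). Cholesterol synthesis had 12.5% higher and 12.5% lower, and matrix proteases 11.5% and 11.5%. Of p53 targets 9.52% were higher, and of MHC class I processing genes 13.3% were lower. The unfolded protein list gave 6 of 32 higher and 3 lower (1 lower when any array but T399I replicate 1 was left out), glycolysis and hypoxia 6 of 36 and 5, and cholesterol synthesis 3 of 24 and 3. Carbonic anhydrase CA12, at 7.54, 7.45 and 7.44 against 8.92, 8.98 and 8.93 (-1.47), lies on chromosome 15, and PGK1, higher by 0.77, lies on X. Of p53 targets 2 of 21 were higher (ZMAT3 0.48 and TP53I3 0.39; TP53I3 alone without D299G replicate 1 or 2 or T399I replicate 3), and of MHC class I processing genes 2 of 15 were lower (ERAP1 -0.64 and TAPBPL -0.49). Matrix proteases and their inhibitors gave 3 of 26 in each direction, with MMP1 at -0.70. The oncofetal and cancer-testis list gave 4 of 22 higher and 1 lower, namely AFP, GPC3, PEG10 and IGF2BP3 against LIN28A; IGF2BP3, at 0.24, was named after its value was seen.

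Differences also ran along chromosomes. On chromosome 15, 234 of 576 genes (40.6%) were lower in D299G and 10 were higher, with a median of -0.19, against 10.7% lower over all genes. Side by side, the chromosome's median was -0.17 for D299G minus TLR4-WT and -0.02 for T399I minus TLR4-WT, comparisons that share the TLR4-WT arrays. Chromosome 13 had 113 of 317 genes lower (35.6%; median -0.09). On X, 180 of 694 genes (25.9%) were higher in D299G, with a median of 0.11, and the medians against TLR4-WT were 0.01 for D299G and -0.14 for T399I. Chromosome 11 had 14.7% higher. Shares of lower genes above 10.7% were also seen on chromosomes 7 (19.1%), 10 (19%), 8 (16.3%) and 20 (15.3%). The same held for chromosomes 22 (14.9%), 14 (14.7%) and 4 (13.5%).

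Running medians over 25 neighbouring genes reached 0.25 in size in 19 stretches that held 1113 genes. The longest, on chromosome 15 from SLC12A1 to CTSH, held 239 genes with a median of -0.32; 124 were called lower and 5 higher, and CA12, TLN2 and ZWILCH had the largest differences. On the same chromosome, GPR176 to DUOX1 held 87 genes with a median of -0.30, 43 of them lower and 0 higher. On X, RRAGB to ITM2A held 87 genes (median 0.32; 42 higher, 1 lower), with IL2RG, COX7B and GJB1 leading. On chromosome 13, BAGE5 to ALOX5AP held 71 genes (median -0.31; 34 lower). On chromosome 4, PARM1 to IBSP held 73 genes at -0.27, with KLHL8, ANTXR2 and CCNG2 leading.

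On chromosome 7, NAPEPLD to FAM3C held 68 genes with a median of -0.28, of which 33 were lower and 2 higher. SLC26A3, TSPAN12 and CFTR led it, and each of them exceeded the stretch's median in size by at least 1 on the log2 scale. The HOXB genes lie in a stretch of 28 genes on chromosome 17 from MRPL10 to TTLL6 with a median of -0.17, and the metallothioneins in 1 of 26 genes on chromosome 16 from OGFOD1 to PLLP with a median of 0.20. Leaving out each array in turn kept the sign of the median in all 19 stretches. The medians ran from -0.34 to -0.31 for SLC12A1 to CTSH and from 0.29 to 0.36 for RRAGB to ITM2A. The stretches were picked from these same arrays, so the kept signs are no independent support for them. Expression arrays do not measure DNA copy number, and its part in these stretches was not tested.

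Markers of other cell types were checked as lists. The summed log2 level of 6 measured Paneth cell markers was 12.82 to 12.86 in D299G and 10.43 to 10.54 in T399I, and that of 10 leukocyte markers 13.19 to 13.24 against 12.13 to 12.17. LYZ is in both lists, and PTPRC, which defines leukocytes, was at 3.63 in both lines. Of the Paneth markers 3 were higher and 0 lower: LYZ, PLA2G2A (1.87) and ITLN2 (0.52). DEFA5 (-0.06) and DEFA6 (-0.02) were not called. Of 11 enteroendocrine markers 0 were higher and 3 lower, with sums of 10.41 to 10.42 in D299G and 11.12 to 11.22 in T399I. Fibroblast markers were higher in 3 of 10 and lower in 0: PDGFRA (0.73), COL3A1 (0.48) and PDGFRB (0.43). DCN, at 3.82 and 3.75, lay under the lower quartile and was not called. Endothelial markers were higher in 1 of 8 (PECAM1, 0.52). The called markers in this paragraph were named after their values were seen. The part of other cell types in the differences above was not tested.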

How the data were processed

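Biotin-marked RNA from 12 Caco-2 samples was hybridised to Affymetrix whole-transcript arrays, 1 per sample. Per the submitters' processing notes, the authors made the values with Affymetrix Expression Console 1.0 and RMA, a background correction, quantile normalisation and probe summary. What they deposited is log2 expression to 2 decimals for 33297 probe sets. No detection calls were used here. They were analysed as deposited, without a filter.

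A model of 4 group means (8 residual degrees of freedom) was fitted with limma 3.58.1 in R 4.3.3, with empirical Bayes moderation and two-sided Benjamini-Hochberg adjustment. In the platform annotation 19460 probe sets had 1 symbol (19429 of them a RefSeq name), 1754 had several and 12083 had none. The brightest probe set stood for its gene. The 807 called probe sets without exactly 1 symbol are not named.

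Named genes are TLR4, the 20 largest called, non-overlapping differences in each direction (small RNAs, unnamed loci and multigene families left out) and up to 4 such members per list; unlisted extras are said to be so, except the HOXB genes, promoters and stretch ends. Some list members were not analysed here. Members and lists were chosen with earlier results of these data known. Gene order and promoter sequences came from RefSeq, GRCh38.p14; the array's own build is not given in the sources used here. Over all probe sets, deviations of same-numbered D299G and T399I arrays correlated at -0.02, -0.02 and 0.05, so no general pairing was seen. These correlations do not show whether single genes share a replicate effect. TLR4, for one, was highest on replicate 2 in each of the 4 groups. Data were also simulated for this comparison over 33297 probe sets. On the log2 scale, 44.8% of 67 changes of 0.5, 92.5% of 67 of 1 and 100% of 66 of 2 were recovered, with 6 false calls. The simulation changed only these probe sets and drew independent normal noise, whereas 13.4% of probe sets were called in the data. Its rates of recovery and false calls therefore do not carry over to the real arrays.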

Additional observations from a re-analysis of the deposited data

Results flagged for a closer look

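For 5 named genes the D299G and T399I lines lay on opposite sides of untransfected Caco-2 by at least 2-fold, with both differences and the difference between the lines called by limma. The comparisons with untransfected cells share the untransfected arrays, so they are given side by side. A2M, the plasma protease trap, differed between the lines by 4.94, with D299G above untransfected cells by 3.79 and T399I at -1.16. UGT2B10, a glucuronosyltransferase, differed by 3.47 (1.92 in D299G and -1.54 in T399I). ERP27, of the endoplasmic reticulum, differed by 2.31 (1.22 and -1.09). Antithrombin, SERPINC1, differed by 2.26 (1.23 and -1.02). PLXDC2, a membrane protein, ran the other way at -2.26 (-1.24 and 1.01). Groups of 3 arrays are too small for a test of single outlying arrays.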

How the results depend on the processing

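Over 7 other settings and with each of the 6 arrays left out in turn, the number of called probe sets ran from 3136 (without D299G replicate 3) to 5124 (trend and robust prior), against 4476. Testing the 16650 brightest probe sets gave 68 that were lower by at least 2-fold, against 121, from fewer probe sets tested. TLR4 ranged from 0.43 to 0.51 when 1 array was left out; its exact permutation test kept 0.47 at p = 0.1. Windows of 15 and 41 genes gave 50 and 9 stretches instead of 19; the cause was not tested. With the replicate block 4632 probe sets were called, no named gene lost its call, and TLR4 had a limma adjusted p of 0.0077. Of 158 named genes besides TLR4, 153 kept call and direction under every alternative that measured them. These genes were picked from these same arrays as called differences, so the kept calls are no independent support for them. SARM1, CXCL2, CCNE2, ZMAT3 and MSMO1 lost the call at least once, and a further probe set for TIMP3 was not called (0.26; limma adjusted p = 0.12). No value reversed. Among the brightest probe sets the list medians rose to 1.81 for plasma carriers, 1.95 for protease inhibitors and 0.74 for conjugation genes, and 5 HOX genes were lower instead of 10, with fewer members measured. Leaving out genes of chromosomes 13, 15 and X and leaving arrays out of stretch medians were chosen after seeing the data. Levels under the arrays' lower quartile have no detection call here, so folds against them are lower limits.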
